A study of Mus musculus with 45 samples.

Results

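The genes Cubn, Lrp2, Amn, Dab2, Ttr, Spink1, Srgn, Ctsh, Amot and Tfec, here called visceral endoderm effector genes, were followed through 45 expression arrays of mouse induced pluripotent stem cells (iPSCs). They were chosen by name because most of them had high values in early-passage lines from B cells and from granulocytes of mouse 1. They are 10 of 12394 genes with a usable probe set in the table of passage 10, and 9 of 11807 in the table of passages 4, 6 and 16, where Lrp2 is unnamed. Their probe sets number 18 and 14 in these tables, and of several probe sets for a gene the brightest on average represents it. The early values chose the genes, so passages 4 and 6 and the changes that start from passage 4 are described with no test. Tests are given only at passages 10 and 16. The passage 16 tests still take their estimate of spread from all arrays of their table, the early ones included.

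The lines were derived with a secondary system, in which cells of animals made from already reprogrammed cells are reprogrammed again. Each of 15 groups held 3 clones, and the clones of a group came from 1 mouse. Mouse 1 gave granulocyte lines at passages 4 and 16 and skeletal muscle precursor (SMP) lines at passage 6. From mouse 2 came lines of 4 origins at passages 4, 10 and 16: splenic B cells, T cells, bone marrow granulocytes and fibroblasts of the tail tip (TTF). All cultures were kept in serum and LIF, the cytokine that sustains mouse pluripotent cells, on irradiated embryonic fibroblasts, and these feeders were thinned by preplating before RNA was taken. If a clone number names the same line at each passage, passages 10 and 16 measure again lines whose passage 4 values chose the genes. Values are log2 RMA values, each table on its own scale, so levels are compared between arrays of 1 table and never between genes or tables.

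The visceral endoderm is the layer that surrounds the early mouse embryo and takes up maternal proteins before the placenta works. Cubilin (Cubn) has no membrane anchor of its own and needs amnionless (Amn) to reach the cell surface. The pair works beside megalin (Lrp2), and disabled 2 (Dab2) links megalin to clathrin. What is taken up goes to lysosomes, where proteases such as cathepsin H (Ctsh) act. Transthyretin (Ttr) and the trypsin inhibitor Spink1 are secreted, and serglycin (Srgn) is the core protein of secreted and granule proteoglycans. Angiomotin (Amot) is a junction protein that binds YAP in the Hippo pathway. Tfec is a transcription factor of the MiT family, so the word effector describes it less well than the others. The transcription factors Gata4 and Gata6 drive extraembryonic endoderm, and they bind DNA at sites with a GATA core.

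The promoter windows of 3 of the genes are shown. Cubn is shown for the early lines and passage 10, and Tfec as the transcription factor among them. Dab2 is shown as 1 of the genes called at passage 16, although Amot had the lower adjusted p there. From RefSeq (GRCm38.p6), 9 windows for 7 of the genes were searched. Each ran from 250 bases before a transcription start to 50 after it. No window of Ttr, Spink1 or Ctsh was among them, so these genes have no promoter result here. The letters AGATAA as well as AGATAG, along with TGATAA and also TGATAG, were searched on both strands, overlaps allowed, and matches are in capitals. The Cubn window is chr2:13491827-13492126, minus strand, the first Dab2 window is chr15:6299539-6299838, plus strand, and the Tfec window is chr6:16898392-16898691, minus strand.
Cubn: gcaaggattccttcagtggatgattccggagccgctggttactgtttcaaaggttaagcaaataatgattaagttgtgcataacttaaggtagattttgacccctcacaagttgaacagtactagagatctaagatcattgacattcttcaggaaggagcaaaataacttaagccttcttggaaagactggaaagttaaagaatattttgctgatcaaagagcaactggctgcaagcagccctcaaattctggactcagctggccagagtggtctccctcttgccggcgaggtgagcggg
Dab2: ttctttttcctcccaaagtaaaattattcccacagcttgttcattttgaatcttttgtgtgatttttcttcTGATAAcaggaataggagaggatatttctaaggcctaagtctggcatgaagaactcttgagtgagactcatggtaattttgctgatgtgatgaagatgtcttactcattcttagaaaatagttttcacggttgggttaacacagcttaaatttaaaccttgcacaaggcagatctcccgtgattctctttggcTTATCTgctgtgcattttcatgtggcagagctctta
Tfec: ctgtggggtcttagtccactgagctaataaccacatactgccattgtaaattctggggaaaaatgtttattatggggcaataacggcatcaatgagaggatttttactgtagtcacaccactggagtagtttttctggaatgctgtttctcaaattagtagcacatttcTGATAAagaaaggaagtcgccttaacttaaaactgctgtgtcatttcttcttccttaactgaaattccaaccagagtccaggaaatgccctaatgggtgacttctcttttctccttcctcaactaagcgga
These letters occurred in 2 of the 9 windows, namely the Dab2 window shown, with TGATAA 179 bases upstream of the start and a reverse-strand match past the start, and the Tfec window, with TGATAA 81 bases upstream. The other searched windows, that of Amot and the second of Dab2 among them, held no match. Of all 32851 promoter windows of this length, 9778 (29.8%) hold a match. A match describes letters and shows no binding.

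Across the table of passages 4, 6 and 16, arrays correlated with the others of their group at a mean r from 0.922 to 0.996, and at passage 10 from 0.997 to 0.998. The array with the lowest mean r was clone 3 of the granulocyte lines of mouse 2 at passage 16. Limma counts at passage 16 are therefore also given without it for the F-test and the B cell, T cell and granulocyte comparisons. Means, changes from passage 4 and correlations include it. The averaged pluripotency list of 8 genes lay between 11.05 and 11.57 in all 11 groups of the first table, its lowest mean being in the group that holds that array.

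At early passage the endocytic receptor gene Cubn stood apart in the B cell lines and in the granulocyte lines of mouse 1. Log2 values were 8.42, 9.25 and 8.60 in the B cell clones 1, 2 and 3 at passage 4, and 8.46, 10.32 and 9.74 in the granulocyte clones of mouse 1. They were 5.94, 4.90 and 7.30 in TTF lines, 5.49, 6.24 and 4.87 in T cell lines, and 6.07, 5.66 and 5.86 in granulocyte lines of mouse 2. SMP lines at passage 6 had 5.95, 4.76 and 6.55. The lowest B cell and mouse 1 granulocyte values were thus above the highest value of any other early group. The mean of the B cell lines was 2.94 above that of the other passage 4 origins of mouse 2, or 7.68-fold, and the mean of the mouse 1 granulocyte lines was 3.75 above that of the SMP lines. Granulocyte lines of the 2 mice did not resemble each other here, with means of 9.50 ± 0.95 and 5.86 ± 0.21 (SD, n = 3). In bulk RNA, a difference in the number of endoderm-like cells in a culture and a difference in RNA per cell cannot be told apart.

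**Figure D1:**
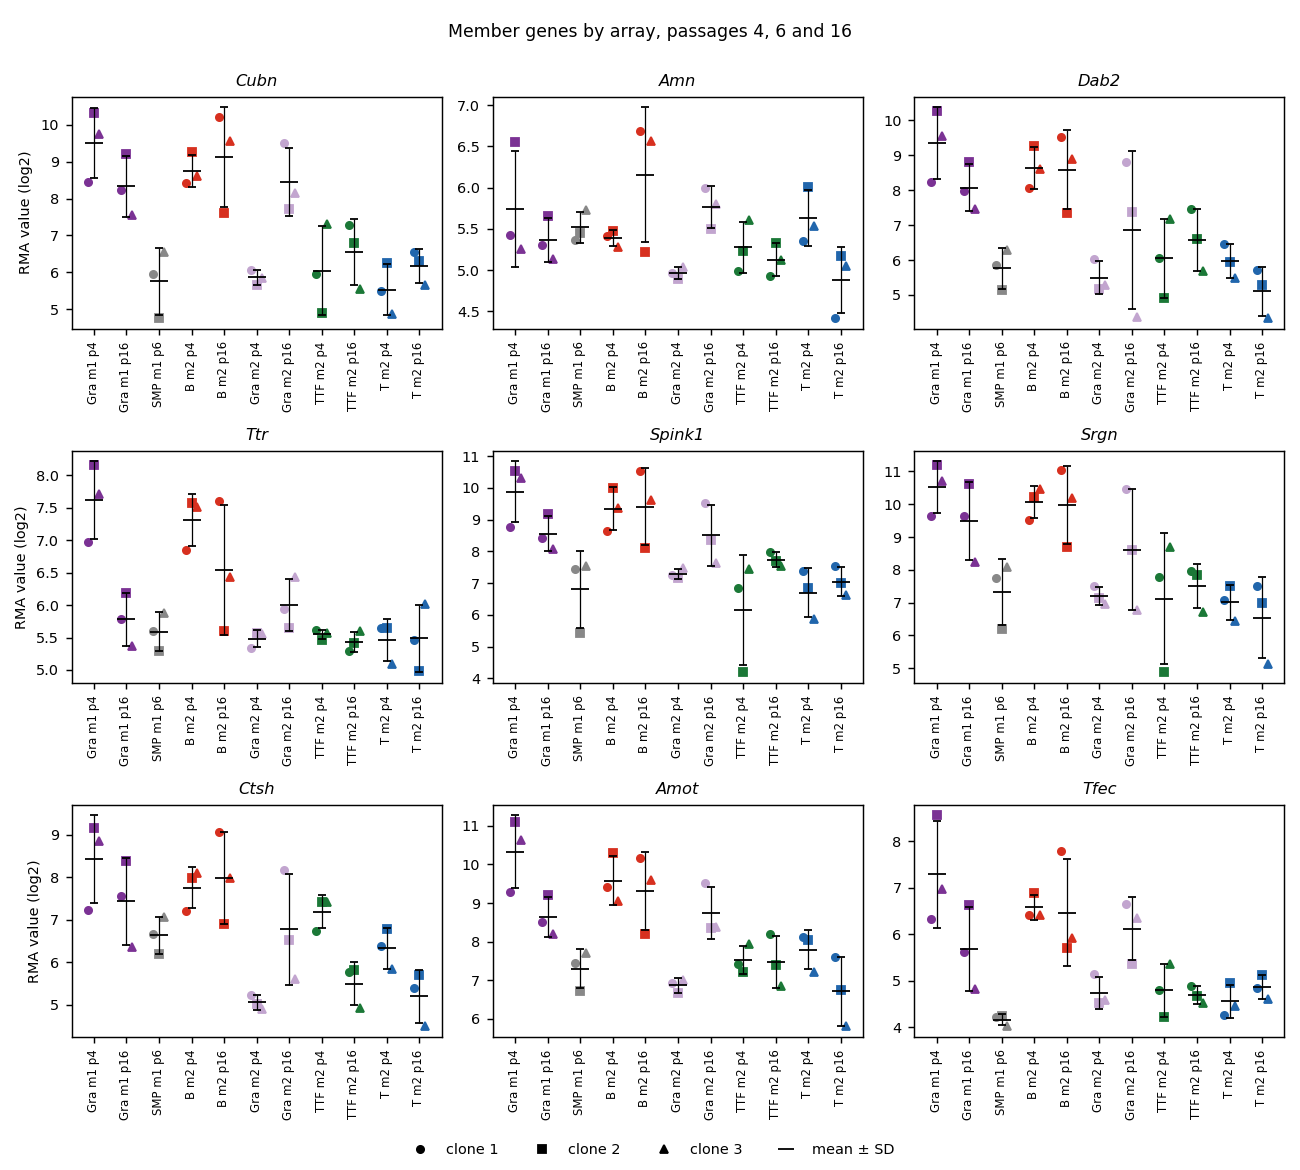
Log2 RMA values (vertical axis) of 9 genes on 33 arrays, grouped by origin, mouse (m) and passage (p). Symbols mark the clones, and the bars give mean ± SD of 3 clones. Cubn in B cell lines lies between 8.42 and 9.25 at passage 4 and between 7.60 and 10.21 at passage 16.

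Amnionless, the partner that anchors cubilin, differed less than the others in both early differences. Amn values at passage 4 were 5.42, 5.47 and 5.28 in B cell lines, inside the range of TTF lines (4.99, 5.23 and 5.60). The B cell mean was 0.10 above the other origins, and the mouse 1 granulocyte mean 0.23 above the SMP mean. The highest early value was 6.55, in granulocyte clone 2 of mouse 1, and the next was in a T cell clone. Amn was thus a member by its role rather than by its early level.

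The adaptor gene Dab2 followed Cubn at early passage. It measured 8.07, 9.25 and 8.59 in B cell lines and 8.23, 10.25 and 9.55 in granulocyte lines of mouse 1. The other early groups ran from 4.92, a TTF clone, to 7.16, another TTF clone, and did not overlap with these. The difference was 2.80 for B cell lines and 3.59 for granulocyte against SMP lines. The other Dab2 probe set gave 5.55, 6.59 and 6.57 in B cell lines against a highest value of 5.41 in the remaining passage 4 lines of mouse 2.

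Among the secreted products, Spink1 at passage 4 gave 8.64, 10.01 and 9.37 in lines from B cells and 8.77, 10.54 and 10.32 in the granulocyte lines of mouse 1. Its highest value in any other early line was 7.55, in SMP clone 3, and its lowest was 4.19, in TTF clone 2. Srgn, which blood cells also express strongly, gave 9.52, 10.20 and 10.47 in B cell lines and 9.65, 11.19 and 10.72 in granulocyte lines of mouse 1. The other early Srgn values ran from 4.88 to 8.71, both from TTF clones, so these groups did not overlap either. The averaged list of 12 myeloid markers, with Ptprc and Spi1 in it, lay between 4.94 and 5.15 in every group of this table. Single markers went both ways: 2 of 12 lay above 0 in each early difference, with medians of -0.14 and -0.15. The part of blood cell RNA in the Srgn values was not tested.

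Ttr was low outside the B cell and mouse 1 granulocyte lines. Its values at passage 4 were 6.86, 7.58 and 7.51 in B cell lines and 6.98, 8.17 and 7.72 in granulocyte lines of mouse 1. SMP lines had 5.61, 5.29 and 5.88, and all other passage 4 lines of mouse 2 lay between 5.08 and 5.65. A further Ttr probe set spread more widely: 6.05, 7.59 and 7.45 in B cell lines, 3.33, 3.91 and 3.39 in T cell lines, and 3.69, 2.90 and 3.87 in SMP lines. Both probe sets placed the same groups on top, with the step larger on the second.

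The cathepsin gene Ctsh was less clearly divided. B cell lines had 7.20, 7.97 and 8.09 at passage 4, and TTF lines had 6.74, 7.42 and 7.42, so the groups overlapped. The lowest early values, 5.24, 5.03 and 4.90, were those of granulocyte lines of mouse 2, while granulocyte lines of mouse 1 had 7.24, 9.17 and 8.85. The B cell difference was 1.56.

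Amot and Tfec showed the same division as Cubn. Amot measured 9.41, 10.29 and 9.04 in B cell lines and 9.28, 11.09 and 10.63 in granulocyte lines of mouse 1, against a highest value of 8.13, in a T cell clone, among the other early lines. Tfec measured 6.42, 6.88 and 6.42 in B cell lines and 6.33, 8.56 and 6.96 in granulocyte lines of mouse 1, and no other early line was above 5.35. SMP lines were the lowest for Tfec, at 4.21, 4.24 and 4.02. Of the 3 Amot probe sets only the brightest carried this division: on the second, group means stayed between 4.41 and 4.98, and on the third they ran from 3.19 to 4.495, with the highest mean in granulocyte lines of mouse 1 at passage 4.

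Counted together, 9 of 9 genes lay above 0 in both early differences, with a median of 2.19 for B cell lines, where all genes had a median of -0.06, and 3.08 for granulocyte lines of mouse 1, where all genes had -0.06. Granulocyte lines of mouse 1 also lay above B cell lines for 9 of 9, by 0.30 to 0.75. The choice of genes fixes the directions of both early differences. It does not set the order between the chosen groups, and that order was not tested. Amn (0.10 and 0.23) and Ctsh (1.56 and 1.78) had the smallest differences among the 9. Genes outside the list that follow the members are described at the end by their correlation.

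**Figure D2:**
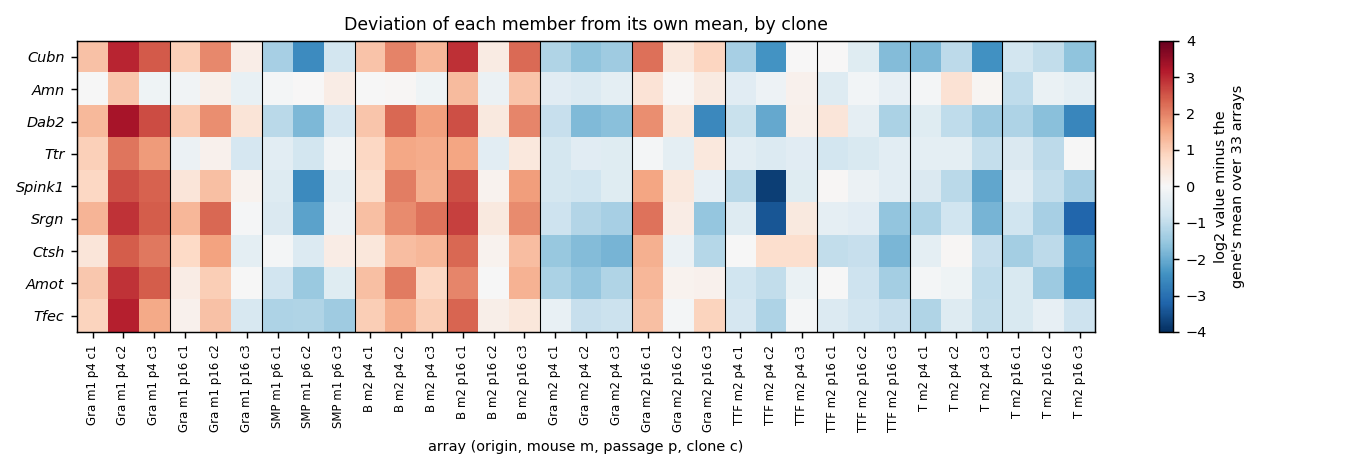
Log2 value of each gene minus its own mean over 33 arrays (colour, blue below and red above that mean), 1 column per clone, grouped by origin, mouse (m) and passage (p). The columns of B cell lines and of granulocyte lines of mouse 1 at passage 4 are mostly red. At passage 16 so are B cell clones 1 and 3, granulocyte clone 2 of mouse 1 and granulocyte clone 1 of mouse 2. There B cell clone 2 averages 0.11 and granulocyte clone 1 of mouse 1 averages 0.52. Amn stays pale in most arrays.

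In some groups the genes ranked the clones alike, and in others they did not. In granulocyte lines of mouse 1 at passage 4, clone 2 was the highest for 9 of 9 genes, and for 28.8% of all genes. At passage 16 the B cell clone 1 was the highest for 9 of 9 and clone 2 the lowest. In T cell lines at passage 16 the genes disagreed, with clone 1 the highest for 5, clone 2 for 3 and clone 3 for 1, and in granulocyte lines of mouse 2 at passage 4 these counts were 5, 1 and 3. In B cell lines at passage 16 the distance from the highest to the lowest clone had a median of 2.17 over the genes, against 0.39 over all genes. In granulocyte lines of mouse 2 at passage 4 it was 0.35, against 0.26, so the early granulocyte clones of mouse 2 were nearly as even for these genes as for others.

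After each value was centred on its group mean, Cubn correlated over the 33 arrays with Amot at r = 0.89, Spink1 at 0.87, Srgn at 0.85, Ctsh at 0.79, Dab2 at 0.79, Tfec at 0.74, Amn at 0.62 and Ttr at 0.57. Over all genes the median r with Cubn was -0.03. All 36 pairs among the 9 genes were above 0, with a median of 0.66 and a range from 0.26 to 0.90. At passage 10, 38 of 45 pairs were above 0, with a median of 0.34 and a range from -0.36 to 0.90. There Cubn went with Srgn (0.90), Dab2 (0.85) and Ctsh (0.77), and hardly with Tfec (0.21) or Spink1 (-0.04). These are descriptions over arrays that share a platform, a normalization, groups and possibly lines. At passage 16, same-numbered arrays of different origins also went together over variable genes, and the part of this in the correlations was not tested.

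From passage 4 to 16 the 2 granulocyte series moved in opposite directions. In mouse 1, all 9 genes had lower means at passage 16, with a median difference of -1.27, and in mouse 2 all 9 had higher means, with a median of 1.37. Over all genes the medians were 0.04 and 0.21. Cubn in mouse 2 went from 6.07, 5.66 and 5.86 to 9.49, 7.71 and 8.15, and in mouse 1 from 8.46, 10.32 and 9.74 to 8.24, 9.21 and 7.55. Amot in mouse 2 went from 6.94, 6.66 and 7.02 to 9.53, 8.34 and 8.37. At passage 16 the Cubn means were 8.33 ± 0.83 and 8.45 ± 0.93, so the granulocyte lines of the 2 mice, far apart at passage 4, overlapped. Not all clones moved with the mean. In mouse 2, granulocyte clones 1 and 2 were higher for 9 of 9 genes, with medians of 2.59 and 1.48, against 0.13 and 0.07 over all genes. Clone 3 was higher for 7 and lower for 2, with a median of 0.76, against 0.30 over all genes. In the granulocyte clone 3 of mouse 2, the array that stands apart, Dab2 was 0.90 lower at passage 16, with 4.37 after 5.28, while Cubn was 2.29 higher.

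**Figure D3:**
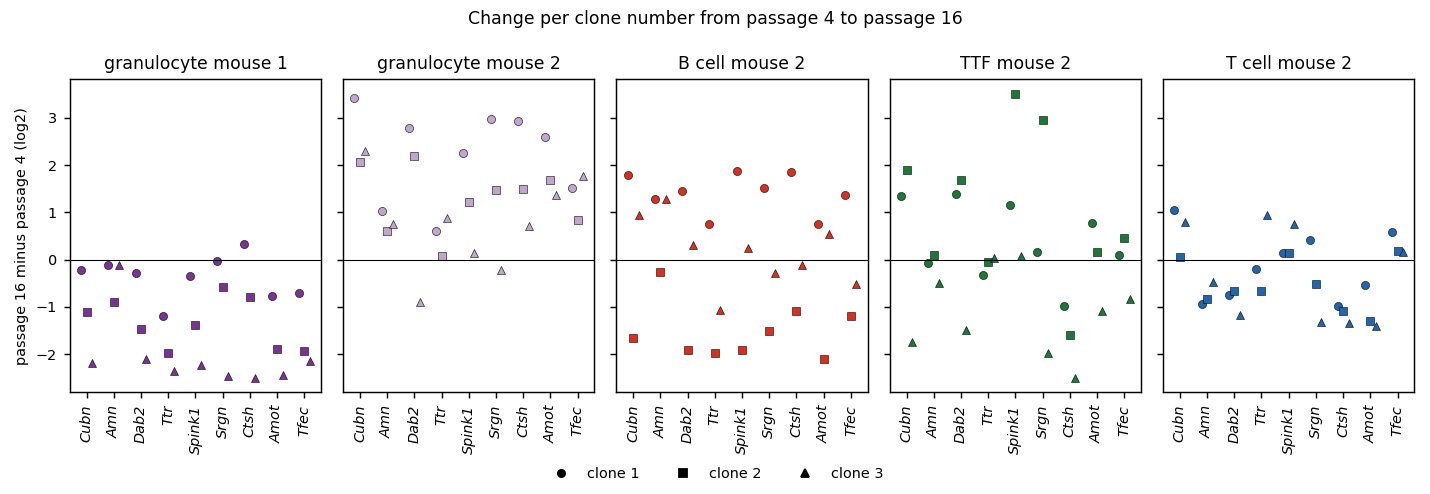
Log2 value at passage 16 minus that at passage 4 for the same clone number (vertical axis), by gene and origin, with symbols for the clones. Points of granulocyte lines lie mostly below 0 in mouse 1 and above 0 in mouse 2, and the B cell clones 1 and 2 lie on opposite sides of 0 for all 9 genes.

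The B cell lines kept a high mean but spread out. Cubn at passage 16 was 10.21, 7.60 and 9.55, Dab2 was 9.52, 7.34 and 8.90, and Srgn was 11.03, 8.70 and 10.19. Clone 1 was higher than at passage 4 for 9 of 9 genes, with a median of 1.46, clone 2 was lower for 9 of 9, with a median of -1.65, and clone 3 was higher for 5 and lower for 4. Amn went from 5.42, 5.47 and 5.28 to 6.69, 5.21 and 6.56. In T cell lines the genes split, with Cubn at a mean of 6.17 after 5.53 and Amot at 6.72 after 7.80. TTF clone 2, the lowest array for Spink1 and Srgn at passage 4, had 3.51 more Spink1 and 2.96 more Srgn at passage 16.

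At passage 16 the origins of mouse 2 were tested with limma, each origin against the mean of the other 3 and all 4 in an F-test. The spread was estimated from all 33 arrays, those of passages 4 and 6 and of mouse 1 included. A gene counts as called at a Benjamini-Hochberg adjusted p under 0.05 over all genes. The F-test called 3 of 9 genes, Amot (adjusted p = 0.0182), Cubn (0.0242) and Ctsh (0.0242), where it called 180 of all genes, or 1.52%. Amn at 0.0543, Dab2 at 0.0574, Tfec at 0.0668 and Srgn at 0.083 missed the threshold. With only the compared groups in the fit, the F-test called 0 members and 0 of all genes. Without the granulocyte clone 3 that stands apart, the F-test called 5 of 9 members and 2.53% of all genes. Leaving out T cell clone 3 left 0 members (1.11% of all genes), T cell clone 2 left 2 (0.754%) and B cell clone 1 left 1 (1.85%). Leaving out granulocyte clones 1 and 2 gave 6 and 7 (4.04% and 17.2%), and B cell clone 2 gave 7 (1.77%).

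B cell lines had the highest mean of the 4 origins at passage 16 for all 9 genes, yet the contrast against the others called 0 of 9, as it called 0% of all genes with limma, 745 of which had an unadjusted p under 0.05. The differences ran from 0.90 ± 0.25 (SE) for Amn to 2.42 ± 0.70 for Srgn, with Cubn at 2.06 ± 0.53 (4.18-fold, adjusted p = 0.317), Dab2 at 2.41 ± 0.62 (0.317) and Ctsh at 2.15 ± 0.47 (0.257). The 3 B cell values overlapped with those of the other origins for each gene. B cell clone 2 decided the count: without it 5 of 9 were called higher, namely Amn (1.37, adjusted p = 0.0102), Ctsh (2.69, 0.022), Cubn (2.82, 0.0281), Amot (2.23, 0.0281) and Ttr (1.38, 0.0461), where 21 of all genes, or 0.178%, were called. Without the granulocyte clone 3 that stands apart the count stayed 0.

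T cell lines had the lowest mean for 7 of 9 genes, and TTF lines for Ttr and Tfec. Dab2 was lower in T cell lines by 2.23 ± 0.62 on the log2 scale (adjusted p = 0.0477), with 5.70, 5.29 and 4.34, and Amot was lower by 1.80 ± 0.41 (0.0154), with 7.60, 6.75 and 5.81. These 2 of 9 genes were called lower where 1.88% of all genes were called lower and 2.86% called in either direction. Both overlapped with other origins, since the granulocyte clone 3 that stands apart had a Dab2 value of 4.37 and a TTF clone an Amot value of 6.86. Cubn was at -1.87 ± 0.53 (0.0512), Ctsh at -1.55 ± 0.47 (0.0712) and Srgn at -2.16 ± 0.69 (0.0917). Without granulocyte clone 3, 5 of 9 were called lower, with Dab2 at -2.64 (0.0024) and Amot at -1.86 (0.00762), while 8.35% of all genes were called in either direction. Without B cell clone 2 also 5 were called, and 2.13% of all genes. Without T cell clone 2 or T cell clone 3, 0 were called, with Amot at -1.81 (0.0617) and -1.34 (0.161). In those fits 1.35% and 1.08% of all genes were called. Amot alone was called without TTF clone 1 or 2, where 1.9% and 2.25% of all genes were. The same held without T cell clone 1 (1.51%), granulocyte clone 1 (2.74%) and B cell clones 1 and 3 (4.12% and 1.89%). The Dab2 call was lost in 9 of 12 fits that left out 1 array. With the mean of probe sets or only the groups compared, 0 were called. Feeder or fibroblast markers moved with this result: 5 of 13 were called lower in T cell lines, among them Col3a1 (-1.15 ± 0.25, adjusted p = 0.01) and Twist1 (-1.08 ± 0.16, 0.000423). Their list mean ran from 6.06 to 6.48 in T cell lines, from 6.90 to 7.08 in TTF lines, from 6.73 to 6.95 in granulocyte lines and from 6.64 to 7.28 in B cell lines, and its part in the result was not tested.

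TTF lines and granulocyte lines of mouse 2 had 0 of 9 genes called at passage 16, where 0% and 2.57% of all genes were called, the latter 303 genes with 3400 at an unadjusted p under 0.05. For TTF lines limma called 0 genes in all, with 818 at an unadjusted p under 0.05. All 9 genes had TTF means below the others, from -0.27 ± 0.62 for Dab2 to -1.37 ± 0.53 for Cubn, and granulocyte means above the others, from 0.09 ± 0.62 for Dab2 to 1.17 ± 0.53 for Cubn. Granulocyte lines of mouse 1 and mouse 2 at passage 16 differed in 16.4% of all genes and in 0 of these 9, with Cubn at -0.12 ± 0.65 and Dab2 at 1.22 ± 0.76 (adjusted p = 0.898 and 0.217). Unadjusted p-values under 0.05 numbered 4739 in this comparison. Without the granulocyte clone 3 that stands apart, limma called 0 of all genes in both granulocyte comparisons. Between the mice it also called 0 without clone 1 or clone 2 of mouse 1. For granulocyte lines of mouse 2 it called 13 without T cell clone 2, 14 without TTF clone 3 and 15 without B cell clone 1. Without granulocyte clone 2 it called 3864, so these shares moved with several single arrays.

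**Figure D4:**
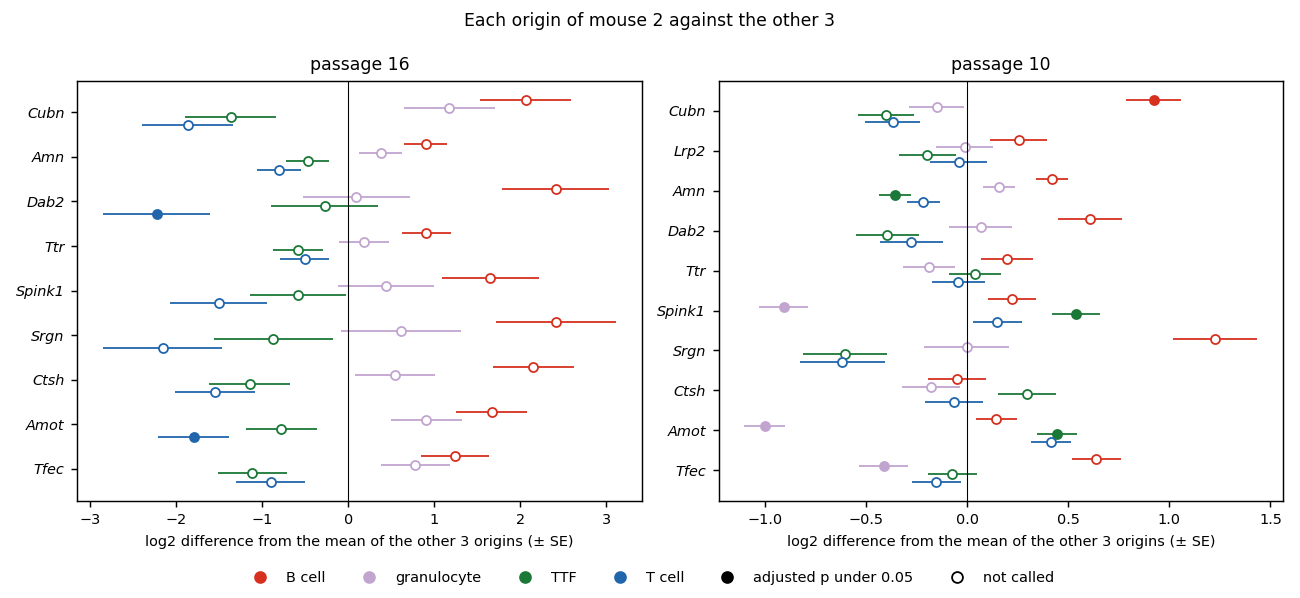
Difference of each origin of mouse 2 from the mean of the other 3 (log2, ± SE from limma) at passage 16 (left, 9 genes) and passage 10 (right, 10 genes), filled where the adjusted p is under 0.05. At passage 16 all red B cell points lie between 0.90 and 2.42 and none is filled. At passage 10 Cubn in B cell lines (0.92) and Spink1 and Amot in granulocyte lines (-0.91 and -1.003) are filled.

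Passage 10 was measured on another platform with tighter replicates, and 7 of the 10 genes differed between origins in the F-test, where 32.2% of all genes did. The adjusted p-values were 0.00028 for Amot, 0.00101 for Spink1, 0.002 for Cubn, 0.00237 for Amn, 0.00362 for Srgn, 0.00706 for Tfec and 0.0317 for Dab2. Lrp2 (0.446), Ttr (0.49) and Ctsh (0.385) were not called. The genes no longer shared 1 pattern: the uptake genes and Srgn were highest in B cell lines, while Spink1 and Amot were lowest in granulocyte lines.

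Cubn at passage 10 was 7.68, 7.41 and 7.61 in B cell lines, 6.21, 6.85 and 6.67 in TTF lines, 6.64, 6.71 and 6.46 in T cell lines and 6.70, 6.51 and 7.08 in granulocyte lines. All 3 B cell values were above all others, and the difference was 0.92 ± 0.14, or 1.90-fold (adjusted p = 0.031). The call was lost with the replicate block (0.117), the mean of probe sets (0.0628) and every probe set fitted (0.0547). It was 1 of 10 genes called higher in B cell lines, where limma called 0.0161% of all genes higher and 0.0645% in either direction, 8 genes in all. The adjusted p passed 0.05 in 8 of 12 fits that left out 1 array, with the difference between 0.86 and 1.00: T cell clones 1, 2 and 3 gave 0.0756, 0.0656 and 0.0629, TTF clone 3 gave 0.0578, granulocyte clone 1 gave 0.077, and B cell clones 1, 2 and 3 gave 0.254, 0.0963 and 0.191. Without TTF clone 2, 3 of the 10 genes were called higher, where 8 of all genes, or 0.0645%, were called in either direction. The other Cubn probe set differed by 1.03 ± 0.19 (0.152 over all probe sets). Cubn was already among the widest genes of the earlier passages, so its call at passage 10 is not independent support for the choice.

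Srgn, Amn, Dab2 and Tfec also had all 3 B cell values above all others at passage 10, and none of them was called. Srgn was 10.02, 9.51 and 9.71 in B cell lines against 9.24 as the highest other value, a difference of 1.23 ± 0.21 (adjusted p = 0.0725). Tfec was 5.38, 5.51 and 5.48 against 5.32 at most, a difference of 0.64 ± 0.12 (0.104). Amn was 7.78, 7.60 and 7.59 against 7.52 at most (0.42 ± 0.08, 0.104), and Dab2 was 8.16, 7.70 and 7.72 against 7.64 at most (0.61 ± 0.16, 0.222). Over all genes 0.565% had all 3 B cell values above all others, a share that includes these genes. The B cell lines may be those whose early values chose the genes, so this is no independent support either. Megalin could be read only in this table, where Lrp2 was 8.15, 7.78 and 7.72 in B cell lines, 7.49, 7.81 and 7.34 in TTF lines, 7.56, 7.73 and 7.69 in T cell lines and 7.89, 7.26 and 7.89 in granulocyte lines. These groups overlapped, and the B cell difference of 0.25 ± 0.14 was not called (0.513).

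**Figure D5:**
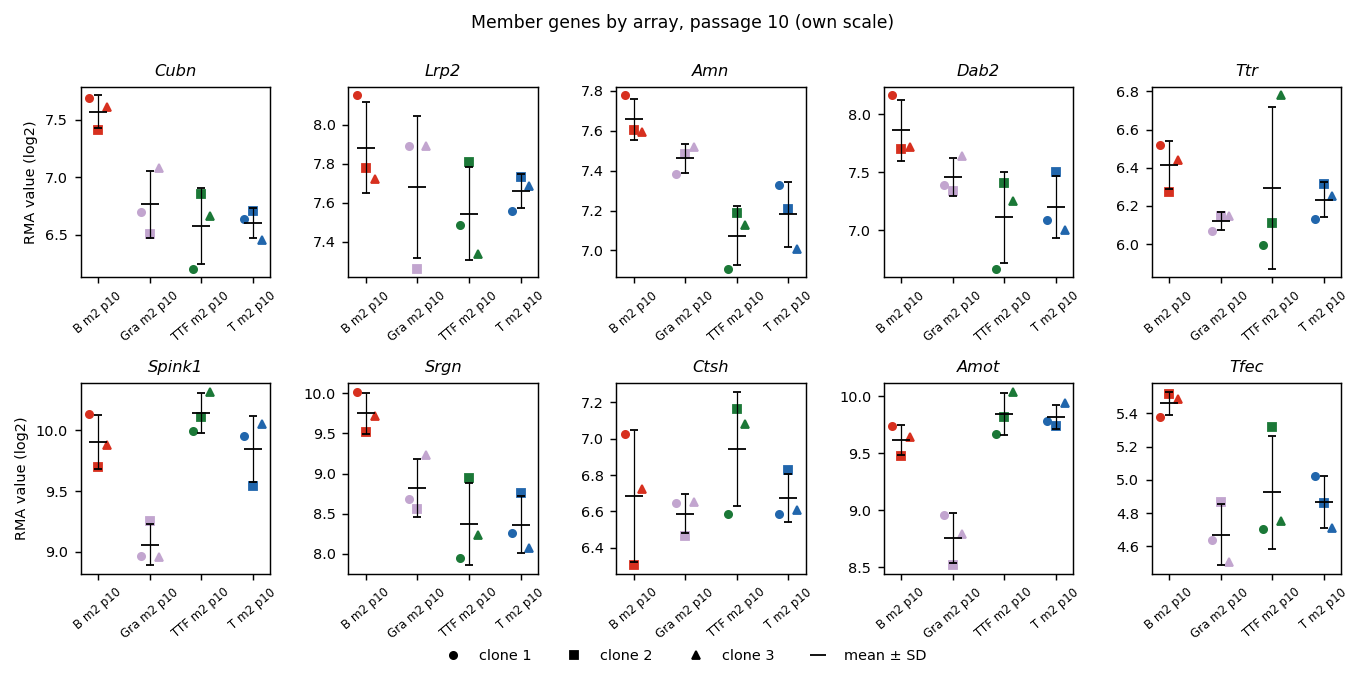
Log2 RMA values (vertical axis, own scale of the passage 10 table) of 10 genes on 12 arrays, by origin of mouse 2. Symbols mark clones, bars give mean ± SD of 3 clones. B cell values of Cubn (7.41 to 7.68) lie above all other origins, and granulocyte values of Amot (8.52 to 8.96) lie below them.

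At passage 10 Spink1 and Amot were lowest in granulocyte lines, where many other genes were lower too. Spink1 was 8.97, 9.25 and 8.96 in granulocyte lines, 10.14, 9.70 and 9.88 in B cell lines, 9.995, 10.11 and 10.32 in TTF lines and 9.96, 9.54 and 10.05 in T cell lines. Amot was 8.96, 8.52 and 8.79 in granulocyte lines and between 9.47 and 10.04 in all others. The granulocyte values lay below those of every other origin for both genes, as they did for 11.9% of all genes. Spink1 differed by -0.91 ± 0.12 (adjusted p = 0.000137) and Amot by -1.003 ± 0.10 (3.36e-05), and Tfec by -0.41 ± 0.12 (0.017), with 4.64, 4.87 and 4.51. These are 3 of 10 genes called lower where 17.2% of all genes were called lower and 38.2% in either direction. Spink1 and Amot were called in all 12 fits that left out 1 array, and Tfec was lost without granulocyte clone 1 (-0.40, 0.0585) or clone 3 (-0.33, 0.107). At passage 4 the same origin and mouse had Spink1 values of 7.25, 7.15 and 7.47, above the means of TTF and T cell lines, so its place among the origins was not the lowest there.

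The lower Amot value in granulocyte lines rests on its brightest probe set, since the other probe sets differed by -0.17 ± 0.08 (adjusted p = 0.146 over all probe sets) and -0.08 ± 0.06 (0.379). Fibroblast markers differed between origins as well. Of 14 such markers, 12 were called lower in granulocyte lines and 14 higher in TTF lines, with Cd44 at -1.82 ± 0.23 (adjusted p = 1e-04) and 1.52 ± 0.23 (0.00333). The list mean ran from 7.29 to 7.41 in granulocyte lines, 7.81 to 8.06 in B cell lines, 7.70 to 8.24 in T cell lines and 8.60 to 8.73 in TTF lines, and its part in the Spink1 and Amot differences was not tested. B cell lines had 0 of the 14 called.

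TTF lines at passage 10 had 2 of 10 genes called higher, Spink1 by 0.54 ± 0.12 and Amot by 0.44 ± 0.10 (adjusted p = 0.0155 for both), where 5.3% of all genes were called higher. Amn was called lower (-0.36 ± 0.08, 0.0148), 1 of 10 where 8.46% were called lower and 13.8% in either direction. All 3 calls overlapped with other origins. Without TTF clone 2 or TTF clone 3, Spink1 (0.071 and 0.0608) and Amot (0.0712 and 0.0629) were not called, and without TTF clone 1 Amn was not (-0.28, 0.0809). T cell lines had 0 of 10 genes called by limma, where 0.0242% of all genes were called, 3 genes, with 2130 at an unadjusted p under 0.05.

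Ttr at passage 10 showed a single high array. On its representative probe set the values were 5.995, 6.11 and 6.78 in TTF lines and 6.52, 6.27 and 6.44 in B cell lines, with T cell lines between 6.13 and 6.31 and granulocyte lines between 6.07 and 6.15. On a second probe set TTF clone 3 reached 7.31 where the other TTF clones had 4.02, and B cell clones had 5.69, 3.57 and 5.26. On the third, TTF clone 3 had 6.21 against 3.75 and 3.47. Ttr was therefore high in 1 TTF culture and moderately high in 2 B cell cultures, and no fit at passage 10 called it. Ctsh varied little at passage 10, with means from 6.59 ± 0.11 in granulocyte lines to 6.94 ± 0.31 in TTF lines.

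The 7 endoderm regulators read beside these genes were Gata4, Gata6, Sox7, Sox17, Foxa1, Foxa2 and Hnf4a. All 7 lay above 0 in both early differences, with medians of 0.95 and 1.23. Of all genes, 40.1% and 42.4% lay above 0 in these differences, the shares to set beside each list. Sox7 had the largest, at 1.61 and 2.77, followed by Gata4 at 1.25 and 1.77. Gata4 averaged 6.64 ± 0.64 in B cell lines and 6.99 ± 0.72 in granulocyte lines of mouse 1, and 5.22 ± 0.38 in SMP lines. At passage 16 the F-test called 3 of 7, where it called 1.52% of all genes. With only the compared groups in the fit it called 0 of all genes. The B cell median at passage 16 was 1.46 with 0 of 7 called. In T cell lines 1 of 7 was called lower, against 1.88% of all genes, Gata4 at -1.35 ± 0.32 (adjusted p = 0.0207). At passage 10, 3 of 7 were called lower in granulocyte lines, where 17.2% of all genes were: Foxa2 (-0.73 ± 0.13, 0.000743), Gata6 (-0.51 ± 0.18, 0.0422) and Foxa1 (-0.42 ± 0.12, 0.0162).

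Other genes of the visceral endoderm did not all go along. Of 17 measured, 13 lay above 0 in the early B cell difference and 12 in the mouse 1 difference, with medians of 0.43 and 0.17. The transcriptional cofactor gene Cited1 (1.36 and 1.59) and Mttp, which loads lipoproteins (0.91 and 1.59), were among the high ones. The apolipoprotein gene Apoa1 was at 0.60 and -0.40. Alpha-fetoprotein (Afp), the abundant product of mature visceral endoderm, averaged 5.57 ± 0.81 in B cell lines and 4.63 ± 0.10 in T cell lines at passage 4. At passage 10 granulocyte lines had 3 of 17 called higher and 2 lower, no more than the 21.1% and 17.2% of all genes, with the lipid carrier gene Apoe at 0.78 ± 0.08 (adjusted p = 3.04e-05) and the signalling gene Bmp2 at -0.51 ± 0.16 (0.0206). At passage 16, 0 of 17 were called in any origin of mouse 2.

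Genes of the machinery around the members were read the same way. Of 19 measured genes of receptor-mediated endocytosis, 11 lay above 0 in the early B cell difference and 8 in the mouse 1 difference, with medians of 0.04 and -0.12. Of 10 lysosomal genes, 4 lay above 0 in both, with medians of -0.06 and -0.64. At passage 16, 0 of either list were called by limma in the origins of mouse 2. At passage 10, where 21.1% of all genes were called higher and 17.2% lower in granulocyte lines, 7 of 21 endocytosis genes were called higher and 2 lower, with Myo6, a motor that carries endocytic vesicles, at 1.30 ± 0.17 (adjusted p = 0.000116) and the receptor gene Lrp1 at 0.42 ± 0.08 (0.000892). Lysosomal proteases and membrane proteins had 8 of 10 called higher and 1 lower there, with Lamp2 at 0.60 ± 0.10 (0.000577) and Ctsb at 0.45 ± 0.07 (0.000243), while Ctsh itself was at -0.18 ± 0.14 (0.358). Of 13 genes around angiomotin and the Hippo pathway, 4 were called higher and 2 lower in granulocyte lines, not far from the shares of all genes, with Amotl2, a relative of Amot, at 0.47 ± 0.11 (0.00332) where Amot was lower. Of the other MiT family genes, Mitf and Tfeb were measured, and Tfeb was lower in granulocyte lines at passage 10 (-0.28 ± 0.07, 0.00516).

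Genes outside the list that were closest to the mean of the members over the 33 arrays were, in order, Gata4 (r = 0.93), the FGF co-receptor gene Klb (0.89), Bmp2 (0.87), the lysosomal gene Dram1 (0.86), Cited1 (0.86), Prss12 (0.84), the parathyroid hormone receptor gene Pth1r (0.84) and Bmp6 (0.83). Over the 12 arrays of passage 10 their r was 0.74, 0.59, 0.59, 0.94, 0.72, 0.25, 0.35 and 0.03. Dram1 and Gata4 thus stayed close on the second platform and Bmp6 did not. The arrays share groups and platforms, and the correlations are descriptions. Dram1 averaged 5.92 in B cell lines and 5.06 in T cell lines at passage 4, and 6.78 in granulocyte lines of mouse 1.

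Markers of other cells were compared at early passage as well. Of the fibroblast markers, 2 of 13 lay above 0 in the early B cell difference, with a median of -0.44, and 1 of 13 in the mouse 1 difference, with a median of -0.93. Their list mean ran from 6.09 to 6.82 in granulocyte lines of mouse 1 and from 7.15 to 7.38 in SMP lines. It ran from 6.10 to 6.26 in B cell lines, from 6.15 to 6.44 in TTF lines, from 6.51 to 6.65 in granulocyte lines of mouse 2 and from 7.12 to 7.33 in T cell lines. The part of these markers in the early differences was not tested. Parietal endoderm genes had 8 of 11 above 0 in the B cell difference (median 0.18) and 5 of 11 in the other (median -0.21). The 9 B cell markers averaged 5.31 ± 0.12 in B cell lines at passage 4, inside the range of group means from 5.15 to 5.59. Trophectoderm markers had 4 of 9 above 0 in both.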

How the data were processed

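RNA of 45 iPSC cultures in 15 groups of 3 was measured on Affymetrix arrays. The deposited log2 values were made by the authors with RMA, per the submitters' processing notes (version not given in the sources used here), separately for 33 arrays (passages 4, 6 and 16) and 12 arrays (passage 10), so no comparison crosses the tables. Each table holds 22690 probe sets, of which 18003 and 20393 have 1 gene symbol in the platform annotation. A probe set with several symbols or none was left out, and the brightest probe set represents a gene. Origins were compared with limma 3.58.1 in R 4.3.3 (lmFit, eBayes) over all genes of a table, with Benjamini-Hochberg adjustment and a threshold of 0.05. Tables and figures were made with Python 3.11.15, pandas 2.3.3, numpy 2.4.6 and matplotlib 3.10.9. The script for the fits was tested on simulated data.

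The genes and the 12 lists set beside them were chosen with earlier results of these data known. Named were all members, up to 4 called genes per list and comparison with the largest differences, markers given by level, and the 8 genes closest to the members' mean. Named outside this rule, after their values were seen, were the early differences of Sox7, Cited1 and Mttp. Labels give no batch, and they do not say whether clones came from separate derivations, so p-values cover the spread between these clones. The number of arrays limits the precision. Alternatives were quantile and cyclic loess normalization, the mean of probe sets, every probe set fitted, a filter on dim genes, the replicate number as a block, a fit of the compared groups alone, and leaving out each array. The effect of scaling and of the mean of probe sets on the early values was added after seeing the data.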

Additional observations from a re-analysis of the deposited data

Results flagged for a closer look

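For 7 of the 9 genes, all 3 clones of an origin lay higher at passage 16 than at passage 4 while all 3 clones of another lay lower. These differences between origins were not tested, the passage 4 values chose the genes, and clone numbers may not name the same line. In granulocyte lines of mouse 2 the mean was higher by 2.588 for Cubn, 0.797 for Amn, 0.52 for Ttr, 1.21 for Spink1, 1.878 for Amot and 1.375 for Tfec. In granulocyte lines of mouse 1 the same genes differed by -1.18, -0.38, -1.84, -1.32, -1.70 and -1.60. Ctsh was higher by 1.715 in granulocyte lines of mouse 2 and differed by -1.69 in TTF lines and -1.13 in T cell lines. T cell lines lay higher for Cubn (0.638), Spink1 (0.346) and Tfec (0.303), and TTF lines for Spink1 (1.577), again with all 3 granulocyte clones of mouse 1 lower. T cell lines differed by -0.75 for Amn and -1.08 for Amot. Groups of 3 clones are too small for a test of single outlying arrays.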

How the results depend on the processing

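Of 549 single values recomputed, 1 changed sign: Ctsh in B cell lines at passage 10, not called in either fit, went from -0.05 to 0.14 without B cell clone 2. The 1 gene called higher in B cell lines at passage 10, Cubn, became 0 with the mean of probe sets (0.98, adjusted p = 0.0628, limma), with every probe set fitted (0.0547) and with the replicate number as a block (0.117). The 2 genes called higher in TTF lines at passage 10 became 1 with the mean of probe sets, where Amot was at 0.15 (0.0978). With only the groups compared in the fit, the F-test of passage 16 called 0 members in place of 3. The 2 genes called lower in T cell lines at passage 16 became 1 with quantile normalization or every probe set fitted, and 0 with the mean of probe sets or only the groups compared. Leaving out 1 array gave 6 to 8 members in the F-test of passage 10, 0 to 3 higher in B cell lines, 0 to 2 higher and 0 to 2 lower in TTF lines, 0 to 1 higher in T cell lines and 2 to 3 lower in granulocyte lines. At passage 16 it gave 0 to 7 in the F-test, 0 to 5 higher in B cell lines, 0 to 5 lower in T cell lines and 0 to 1 higher in granulocyte lines of mouse 1 against mouse 2. The cause was not tested. Where leaving out a clone left 1 group with 2 arrays, the spread was pooled over all groups.

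The replicate numbers were not taken to pair the samples, although same-numbered arrays of different origins went together at passage 16. Over 2000 variable genes these arrays correlated after centring at a median of 0.22 there, where 14 of 18 pairs were above 0.1 and other pairs had a median of -0.15. At passage 10 the median was -0.01 and 5 pairs were above 0.1, with 0.03 for other pairs. The labels give these numbers no shared meaning. The replicate block moved the count of all genes called from 303 to 707 for granulocyte lines at passage 16, from 8 to 3 for B cell lines at passage 10 and from 3 to 1 for T cell lines at passage 10.

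Counts over all genes also moved by more than 1.5 times under other settings. The 8 of B cell lines at passage 10 became 3 with the mean of probe sets and 13 with the filter on dim genes, and the 3 of T cell lines became 0 under quantile or loess normalization, the mean of probe sets or every probe set fitted, and 20 with the filter. Fitting every probe set tests 22690 features, so counts rise while shares need not: 4736 (38.2%) became 7221 (31.8%) in granulocyte lines at passage 10, and at passage 16 180 became 306 in the F-test, 338 (2.86%) became 513 (2.26%) in T cell lines, 303 became 567 in granulocyte lines and 1939 became 4093 between the mice. The last 4 became 0 with only the groups compared, and 303 became 138 with the filter. Leaving out 1 array gave counts over all genes from 2463 to 3870 in the F-test of passage 10, 2 to 8 in B cell lines, 300 to 1780 in TTF lines and 0 to 268 in T cell lines. At passage 16 it gave 72 to 2031 in the F-test, 0 to 21 in B cell lines, 128 to 986 in T cell lines, 0 to 3864 in granulocyte lines and 0 to 5201 between the mice. That filter on dim genes drops Tfec at passage 10, so Tfec has no value there. Among settings added after the data were seen, the mean of probe sets moved the early Amot difference from 2.19 to 0.80 in B cell lines and from 3.03 to 1.42 in granulocyte lines of mouse 1. It also moved Dab2 from 2.80 to 2.16 in B cell lines. For Ttr it raised the difference from 1.82 to 2.75 in B cell lines and from 2.03 to 3.06 in granulocyte lines of mouse 1.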
